A study of Mus musculus with 10 samples.

Results

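Chemokines are small secreted proteins, and chemokine receptors are the G protein-coupled receptors that cells use to follow them. Genes of both kinds were taken by name from a mouse expression array, as every gene called Ccl or Cxcl with a number, Xcl1, Cx3cl1, Ccr or Cxcr with a number, Xcr1 or Cx3cr1. This gave 54 of the 27218 gene names on the array, 35 ligands and 19 receptors, with 70 probes, and each gene is represented by its brightest probe over the 10 arrays. Probes for 53 of the 54 carried an accession that RefSeq lists under the same symbol (all but Cxcl11).

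Total RNA was measured on 10 one-colour arrays, 2 for each of 5 groups. 3 of the groups were B cell acute lymphoblastic leukemias (B-ALL), taken from lymph nodes of mice 686, 713 and 760, which carried 1 intact copy each of the transcription factor genes Ebf1 and Pax5 (Ebf1+/- Pax5+/-, dHet). The dHet pro-B group was Ebf1+/- Pax5+/- Rag2-/- cells grown for a short term from c-Kit positive fetal liver on OP9 feeder cells (a mouse stromal line) with the cytokines IL-7, stem cell factor and Flt3 ligand. As wt pro-B group served Ebf1+/+ Pax5+/+ cells of Fraction BC, sorted from bone marrow of control mice. The leukemias and dHet pro-B cells share the Ebf1 and Pax5 genotype but differ in tissue, culture and Rag2, and dHet and wt pro-B cells differ in tissue of origin, culture and Rag2 as well as in Ebf1 and Pax5. Ages and strains are not given in the sources used here, and neither is whether the 2 replicates of a group were separate animals, cultures or labellings, so p-values may measure technical spread.

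Chemokines are usually divided into inflammatory ones, made on stimulation and attracting leukocytes to sites of damage, and homeostatic ones, made steadily by stromal and epithelial cells to position lymphocytes. Developing B cells are held in the bone marrow by Cxcl12, which stromal cells make and Cxcr4 on the B cell reads. Ccr7 and Cxcr5 guide lymphocytes into lymph nodes and follicles, and Ccr9 guides cells towards Ccl25 in thymus and gut.

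Of the 11 pro-B markers, all but Rag2 and Pax5 were detected on all 10 arrays, Cd79a, Vpreb1 and Rag1 among them. Pax5 was detected on 6 arrays, those of leukemia 713 and of both pro-B groups. Ebf1 was lower in leukemias than in wt pro-B cells (-1.05 ± 0.14 on the log2 scale, adjusted p = 0.00174), as was Pax5 (-4.05 ± 0.79, adjusted p = 0.00691). In dHet pro-B cells, with the same Ebf1 and Pax5 genotype, neither passed against wt (Ebf1 -0.18 ± 0.24, adjusted p = 0.606, and Pax5 -1.05 ± 0.85, adjusted p = 0.396). Rag2 was detected in the dHet pro-B cells although they are labelled Rag2-/-, at -0.98 and -1, against -1.60 and -1.69 in wt pro-B cells (0.66 ± 0.17, adjusted p = 0.0249). Its probe lies at chr2:101472445-101472504 (mm9), and since the deleted part of Rag2 is not given in the sources used here, it does not check that label. Between 35.7% and 52.4% of probes were well above background on an array, the lowest on replicate 1 of leukemia 686. Replicate 1 of each leukemia was on 1 slide, replicate 2 of each on another and the 4 pro-B arrays on yet another, so slide and cell kind cannot be told apart between leukemias and pro-B cells. The 2 dHet pro-B arrays did not match in genes that differ between the sexes. Xist was at -5.96 and 5.17 on them and the Y-linked Ddx3y at 1.56 and -6.14, so they are not 1 RNA measured again. Replicate 1 of each leukemia also carried signal of genes of the other sex that replicate 2 lacked, and whether RNA of another sample was part of it was not tested. Each leukemia mean below rests on 1 such array and 1 replicate 2 array.

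A larger share of the receptors than of the ligands was detected, on every array. A gene was counted as detected on an array when the scanner software marked its probe as well above background. On single arrays 5 to 14 of 35 ligands and 5 to 12 of 19 receptors were detected. Across all arrays 17 ligands and 5 receptors were detected on none. Ccl5 and Ccl25 were the 2 ligands detected on all 10 arrays, and Ccr7, Cxcr3, Cxcr4 and Cxcr5 the 4 receptors. Testing was limited to genes detected on both arrays of at least 1 group, which left 11 ligands (31.4%) and 11 receptors (57.9%), 22 members (40.7%) in all, against 53% of all gene names. A member that entered through a single group in which it was high had to differ from the others, so the counts below describe these 22 and not the family.

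**Figure D1:**
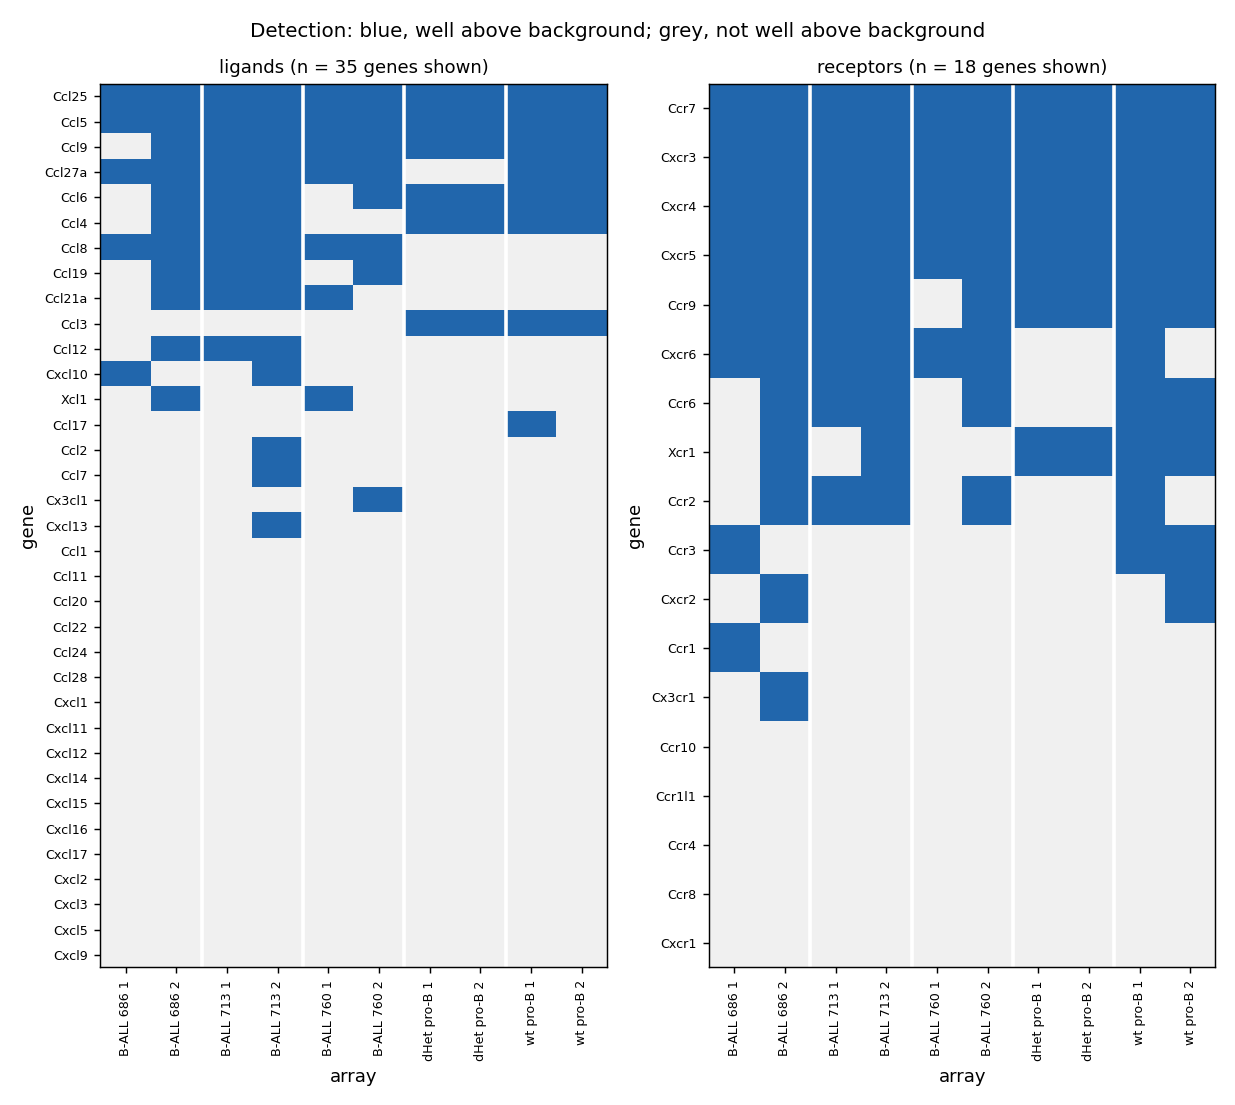
Detection of the 35 ligands (left) and 18 of the 19 receptors (right) on the 10 arrays. Each column is an array and each row a gene, blue where its probe was well above background. Ccl5, Ccl25, Ccr7, Cxcr3, Cxcr4 and Cxcr5 are blue throughout, and 17 ligands and 5 receptors are grey throughout.

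The undetected ligands included most of the CXC class. Cxcl12 was detected on none of the 10 arrays with either of its probes, and neither were Cxcl1, Cxcl2, Cxcl3, Cxcl5, Cxcl9 and Cxcl11. Cxcl16 was detected on none with its brightest probe and on 1 with the other. Ccl20, the ligand of Ccr6, was detected on none, and of the receptors Ccr4, Ccr8, Ccr10, Cxcr1 and Ccr1l1 were not. Some further members were seen on 1 or 2 arrays and not tested. Cxcl13, which draws B cells into follicles through Cxcr5, was detected on replicate 2 of leukemia 713 alone, as were the monocyte attractants Ccl2 and Ccl7. Cxcl10 and Xcl1 were each detected on 2 leukemia arrays of different mice. Cxcr2 was detected on 1 leukemia and 1 wt array, Ccl17 on 1 wt array, Cx3cl1 on 1 array of leukemia 760 and Cx3cr1 on 1 array of leukemia 686. Ccr1, a receptor of several inflammatory ligands, was at 1.48 on replicate 1 of leukemia 686 and at -6.48 on replicate 2, where it was not detected. Ccr3 split in the same way on those arrays, at 0.16 and -6.55.

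Levels below are log2 signal minus the array's 75th percentile, so 0 is that percentile and a difference of 1 is 2-fold. Leukemia levels are given as the mean of the 2 arrays of mice 686, 713 and 760, in that order, and changes are given with their standard error (SE). They were tested with limma over all 14438 genes tested, with Benjamini-Hochberg adjusted p under 0.05 as the threshold. Where a group had no detected array, the fold is a bound: the other group's mean against the dimmest detected level of any probe on the undetected arrays. These bounds hold on this scale alone. Of the 40 changes past the threshold 15 are given as bounds, and none of the 15 was reached with normexp background correction, which adds an offset of 50 to the signal, or in the authors' deposited log2 table. Of the 40, 39 were smaller with normexp and 36 in the authors' deposited table.

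**Figure D2:**
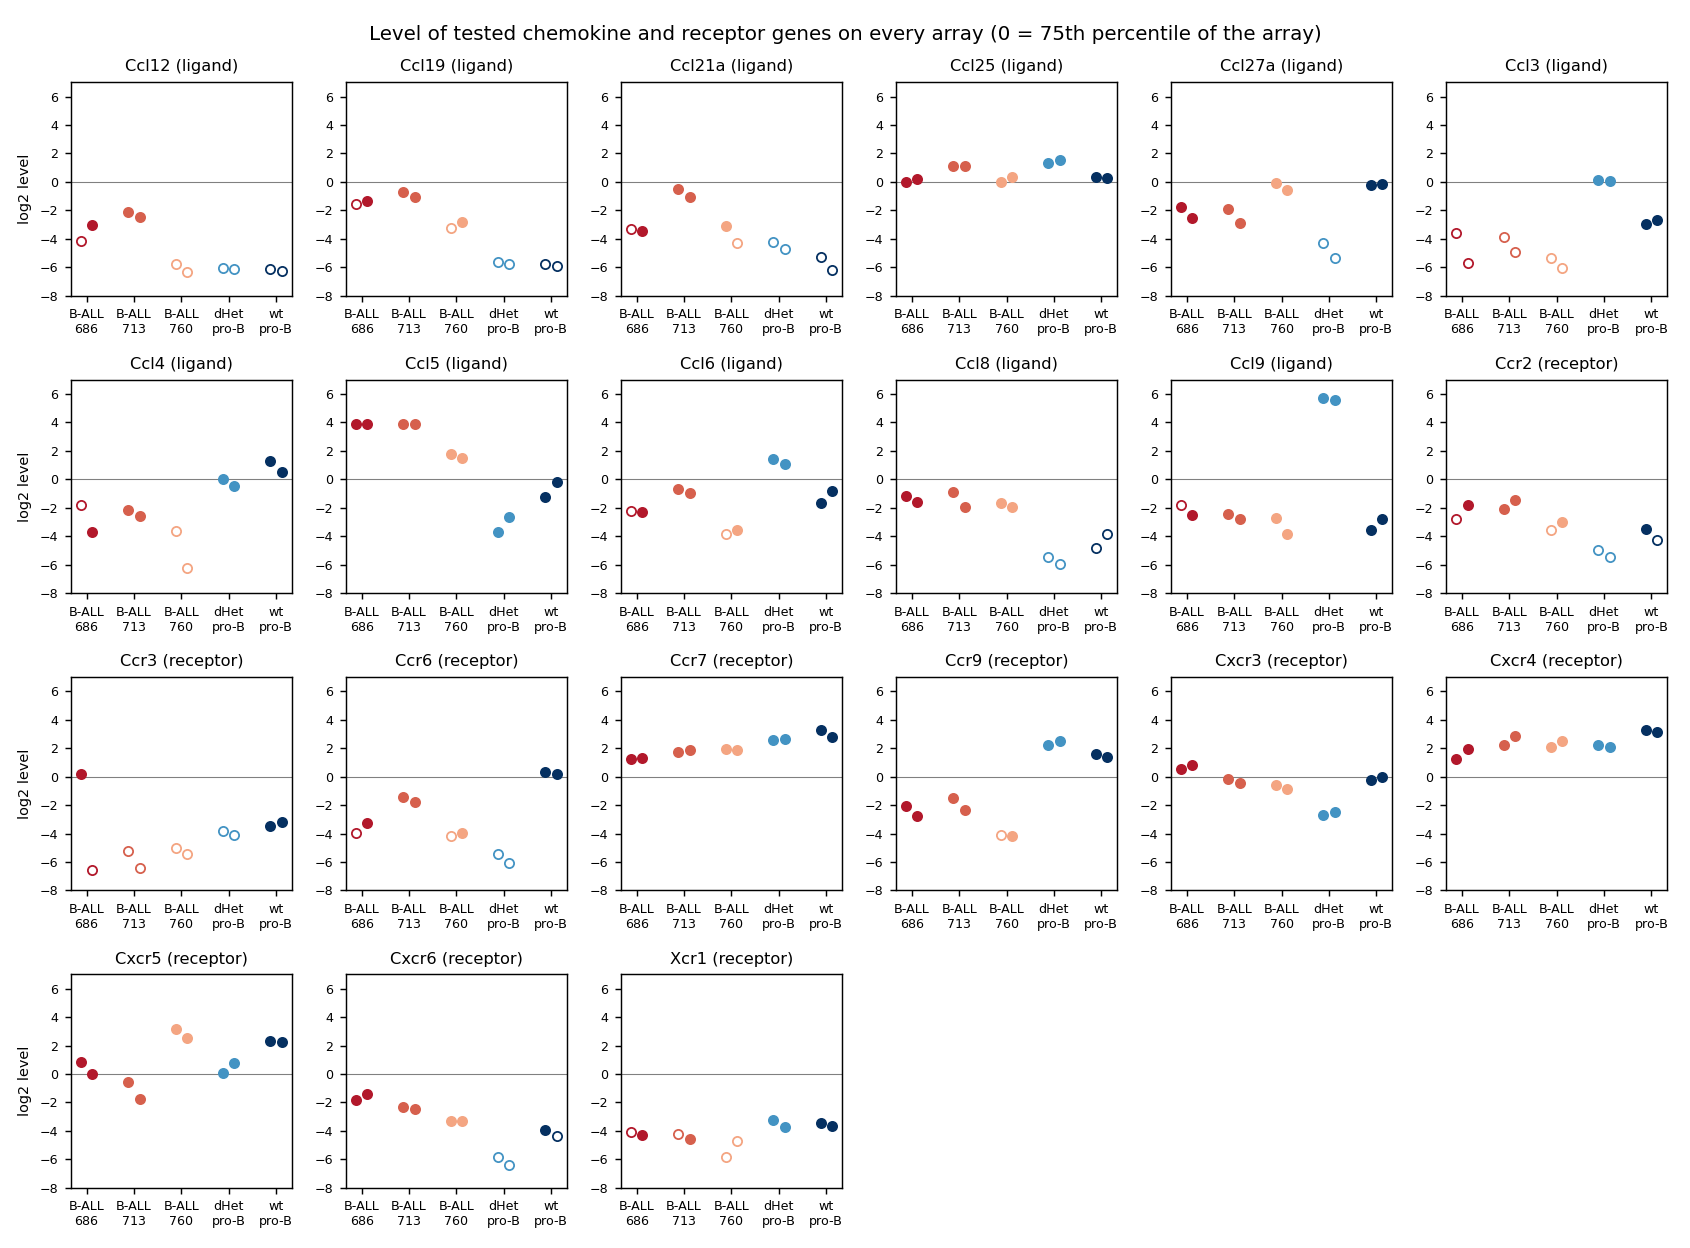
Level of 21 of the 22 tested members on each array (log2, 0 = the array's 75th percentile), for leukemias 686, 713 and 760, dHet pro-B and wt pro-B, with 2 arrays per group. Filled points were well above background and open points were not. Ccl9 is at 5.73 and 5.58 in dHet pro-B cells and at -1.84 or lower on all other arrays. Ccl5 is at 1.46 or higher on every leukemia array and at -0.22 or lower on every pro-B array.

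Ccl5, an inflammatory ligand made largely by T and NK cells, was higher in leukemias than in either pro-B group. Its level was 3.88, 3.88 and 1.61 in the leukemias, -3.71 and -2.64 in dHet pro-B cells and -1.23 and -0.22 in wt pro-B cells. The change was 3.84 ± 0.82 against wt (14.4-fold, adjusted p = 0.00947) and 6.29 ± 0.82 against dHet pro-B cells (78.5-fold, adjusted p = 0.00286). Every leukemia array lay above every pro-B array, and the level in dHet pro-B cells was 5.46-fold lower than in wt (-2.45 ± 0.42, adjusted p = 0.00481). A second probe for Ccl5 passed in each of these comparisons, with changes of 4.27, 7.23 and -2.97. Without wt replicate 1, the call against wt was lost (adjusted p = 0.0697). With normexp, Ccl5 was 20.5-fold higher in leukemias than in dHet pro-B cells and 9.71-fold higher than in wt.

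Ccl8, in mice a ligand of Ccr8, was detected on all 6 leukemia arrays and on no pro-B array. Its level was -1.41, -1.41 and -1.83 in the leukemias, which makes it at least 5.68-fold higher than in dHet (adjusted p = 0.000886) and at least 5.29-fold higher than in wt pro-B cells (adjusted p = 0.00128). With normexp the 2 changes were 1.79-fold and 1.62-fold. The 3 leukemias lay close together, and their difference did not pass (adjusted p = 0.781). Ccl12, a ligand of Ccr2, was detected in leukemias 686 and 713 only, at -3.60, -2.30 and -6.04 in the leukemias and between -6.28 and -6.04 on the pro-B arrays. It did not pass against wt (2.21 ± 1.03, adjusted p = 0.113) or dHet pro-B cells (2.10 ± 1.03, adjusted p = 0.144). Ccl12 and Ccl8 lie next to each other among the members on chromosome 11 (mm9, probes at chr11:81916710-81916769 and chr11:81930108-81930167).

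The ligands of Ccr7, Ccl19 and Ccl21a, which stromal cells of lymph nodes make to draw in T cells and dendritic cells, were seen in the leukemias and on no pro-B array. Each was detected on 4 of 6 leukemia arrays. Ccl19 was at -1.47, -0.89 and -3.05 in the leukemias, at least 4.76-fold higher than in dHet (adjusted p = 0.005) and at least 4.94-fold higher than in wt pro-B cells (adjusted p = 0.00285), but 1.73-fold and 1.77-fold with normexp. Its second probe passed too, at 3.14 ± 0.95 against dHet and 3.23 ± 0.95 against wt. Ccl21a was at -3.39, -0.77 and -3.68 in the leukemias and at least 2.82-fold higher than in wt (adjusted p = 0.0292). It did not pass against dHet pro-B cells (1.86 ± 0.91, adjusted p = 0.146), and the call against wt was lost without replicate 1 of leukemia 760 and without any 1 of the 4 pro-B arrays (adjusted p between 0.0527 and 0.15). Leukemia 713 held the highest level of both, and both entered the test through its 2 arrays alone. Ccl19, Ccl21a and Ccl27a have near-identical copies on mouse chromosome 4, so which copy gave the signal is uncertain.

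Ccl27a, a skin chemokine that binds Ccr10, set the dHet pro-B cells apart. It was at -2.14, -2.40 and -0.33 in the leukemias, at -4.29 and -5.38 and undetected in dHet pro-B cells, and at -0.20 and -0.16 in wt pro-B cells. The level was at least 14.7-fold lower in dHet than in wt pro-B cells (adjusted p = 0.000543), and 3.51-fold lower with normexp. The leukemias were at least 5.40-fold higher than dHet pro-B cells (adjusted p = 0.0129, and 0.0862 without dHet replicate 2; 1.73-fold with normexp) and did not pass against wt (-1.44 ± 0.68, adjusted p = 0.118). Ccl25, the ligand of Ccr9, was detected on every array and was 2.14-fold higher in dHet than in wt pro-B cells (1.1 ± 0.19, adjusted p = 0.00478). Its level was 1.31 and 1.53 in dHet and 0.34 and 0.30 in wt pro-B cells. In the leukemias it was at 0.10, 1.13 and 0.17 and did not pass against dHet (-0.95 ± 0.33, adjusted p = 0.0617) or wt (0.15 ± 0.33, adjusted p = 0.721). The weaker second probe for Ccl25 did pass against dHet pro-B cells (-1.18 ± 0.27, adjusted p = 0.0162).

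3 neighbouring inflammatory CC ligands on chromosome 11, Ccl9, Ccl6 and Ccl3, were higher in dHet than in wt pro-B cells. They lie within a run of 5 members that are in map order Ccl5, Ccl9, Ccl6, Ccl3 and Ccl4 (mm9, from the Ccl5 probe at chr11:83339296-83339355 to the Ccl4 probe at chr11:83478052-83478111). Ccl9 and Ccl6 are myeloid ligands of Ccr1, and Ccl3 and Ccl4 are macrophage inflammatory proteins. Ccl9 was at -2.19, -2.61 and -3.28 in the leukemias, 5.73 and 5.58 in dHet pro-B cells and -3.54 and -2.78 in wt pro-B cells. The level was 450-fold higher in dHet than in wt pro-B cells (8.81 ± 0.45, adjusted p = 3.1e-05) and 326-fold lower in leukemias than in dHet pro-B cells (-8.35 ± 0.38, adjusted p = 0.000424). With normexp these were 105-fold and 111-fold. Leukemias and wt pro-B cells did not differ past the threshold (0.47 ± 0.38, adjusted p = 0.325).

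Ccl6 was likewise highest in dHet pro-B cells. It was at -2.30, -0.85 and -3.74 in the leukemias, 1.40 and 1.04 in dHet pro-B cells and -1.66 and -0.82 in wt pro-B cells. It was 5.51-fold higher in dHet than in wt pro-B cells (2.46 ± 0.30, adjusted p = 0.00113) and 11.4-fold lower in leukemias than in dHet pro-B cells (-3.51 ± 0.82, adjusted p = 0.0178, and 0.0783 and 0.0997 with a single dHet array). Ccl3 was detected on all 4 pro-B arrays and on no leukemia array, at 0.16 and 0.07 in dHet and -2.95 and -2.70 in wt pro-B cells. It was 7.68-fold higher in dHet than in wt pro-B cells (2.94 ± 0.68, adjusted p = 0.0157, but between 0.068 and 0.0895 without any 1 of the 4 pro-B arrays). In the leukemias it was at least 15.6-fold lower than in dHet (adjusted p = 0.000827), but 3.63-fold with normexp and 2.99-fold in the authors' deposited table. Set against wt pro-B cells it was at least 2.03-fold lower (adjusted p = 0.00603, and 0.0506 without replicate 2 of leukemia 686).

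At both ends of the run the direction differed. Ccl5 was lower in dHet than in wt pro-B cells, as given above. Ccl4 was at -2.76, -2.36 and -4.94 in the leukemias, 0.04 and -0.45 in dHet and 1.28 and 0.53 in wt pro-B cells. It did not pass between the pro-B groups (-1.11 ± 0.89, adjusted p = 0.391). In the leukemias it was 8.86-fold lower than in dHet (-3.15 ± 0.79, adjusted p = 0.0224) and 19.1-fold lower than in wt pro-B cells (-4.26 ± 0.79, adjusted p = 0.00582). With normexp these were 2.69-fold and 4.79-fold. Ccl4 was detected on 3 of 6 leukemia arrays, and the call against dHet was lost without replicate 2 of leukemia 686, replicate 1 of leukemia 760 or either dHet array (adjusted p between 0.0542 and 0.12). Along the run, the changes in dHet against wt pro-B cells were thus -2.45, 8.81, 2.46, 2.94 and -1.11.

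The promoters of the 3 middle genes, chosen after their values were seen, are printed because these neighbours were higher together in dHet pro-B cells. The windows are from RefSeq (GRCm38.p6), run from 250 bases before to 50 bases after each gene's start on the minus strand, and lie at chr11:83578587-83578886 for Ccl9, chr11:83593038-83593337 for Ccl6 and chr11:83649329-83649628 for Ccl3. Capitals mark the bases that Ccl9 and Ccl6 share within their best ungapped common stretch.
Ccl9: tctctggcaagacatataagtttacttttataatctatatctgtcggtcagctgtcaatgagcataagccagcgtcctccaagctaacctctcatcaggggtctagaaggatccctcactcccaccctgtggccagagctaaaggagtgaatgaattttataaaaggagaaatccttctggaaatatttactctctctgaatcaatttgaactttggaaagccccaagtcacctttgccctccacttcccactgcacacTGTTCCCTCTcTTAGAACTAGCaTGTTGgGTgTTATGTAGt
Ccl6: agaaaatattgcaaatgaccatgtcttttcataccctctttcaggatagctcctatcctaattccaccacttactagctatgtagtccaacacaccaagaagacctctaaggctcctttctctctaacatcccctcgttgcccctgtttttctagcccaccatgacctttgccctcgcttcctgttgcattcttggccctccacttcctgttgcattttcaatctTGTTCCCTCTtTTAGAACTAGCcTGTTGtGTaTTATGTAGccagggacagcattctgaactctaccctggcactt
Ccl3: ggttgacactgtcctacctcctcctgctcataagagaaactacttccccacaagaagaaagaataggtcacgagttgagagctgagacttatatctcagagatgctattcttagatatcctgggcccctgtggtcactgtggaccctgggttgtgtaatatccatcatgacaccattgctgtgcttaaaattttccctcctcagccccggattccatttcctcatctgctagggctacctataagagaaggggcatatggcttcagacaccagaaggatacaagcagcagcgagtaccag
The shared stretch was 40 bases long with 36 identical (90%), at -25 to 15 in Ccl6 and at 10 to 49 in Ccl9, counted from the start. It ranked 1 of 136 pairs among the 17 tested members with a promoter in the table. Of the 54 members, 40 had a promoter there. The NF-kB motif (GGGA and TTCC with 2 free bases between, both strands searched) was in 6 of the 40 (15%: Ccl1, Ccr3, Cxcl1, Cxcl10, Cxcl2 and Cxcl3), against 1.63% of all 27025 genes. Of these 6 only Ccr3 was among the tested members. The STAT motif TTCNNNGAA was in 4 of 40 (10%: Ccl17, Ccr1l1, Ccr6 and Cxcl14), against 9.55% of all. The EBF1 motif (TCCC and GGGA with 2 free bases between) was in 0 of 40, against 1.06% of all. None of the 3 printed windows held a match to any of these letters.

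Of the receptors that position lymphocytes, Cxcr4, Ccr7 and Cxcr5 were detected on every array. Cxcr4, the receptor of Cxcl12, was at 1.61, 2.55 and 2.31 in the leukemias, 2.24 and 2.08 in dHet and 3.26 and 3.17 in wt pro-B cells. It was about 2-fold lower than in wt both in the leukemias (-1.06 ± 0.29, adjusted p = 0.0222) and in dHet pro-B cells (-1.05 ± 0.31, adjusted p = 0.0406). Leukemias and dHet pro-B cells differed by -0.01 ± 0.29 (adjusted p = 0.985). Both calls were lost when arrays were scaled on their median (-0.49 for the leukemias and -0.70 for dHet pro-B cells) and without either wt array. The call for the leukemias was also lost without replicate 1 of leukemia 713 (adjusted p over these arrays between 0.0734 and 0.112), and that for dHet pro-B cells without either dHet array (between 0.126 and 0.177). A second probe fell by 1.55 in the leukemias against wt (adjusted p = 0.00864) and had -1.36 ± 0.55 in dHet against wt (adjusted p = 0.111).

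Ccr7 was at 1.26, 1.81 and 1.90 in the leukemias, 2.61 and 2.65 in dHet and 3.28 and 2.81 in wt pro-B cells. In the leukemias it was 1.96-fold lower than in dHet (-0.97 ± 0.25, adjusted p = 0.0236, but 0.109 and 0.116 with a single dHet array) and 2.63-fold lower than in wt pro-B cells (-1.39 ± 0.25, adjusted p = 0.00502). Both calls were lost when arrays were scaled on their median, where the changes were -0.76 and -0.83. The highest leukemia array, at 1.94, lay below every pro-B array. Ccr9 was lower in the leukemias as well. It was at -2.43, -1.94 and -4.15 in the leukemias, 2.24 and 2.53 in dHet and 1.61 and 1.40 in wt pro-B cells, and so 37.4-fold lower in leukemias than in dHet (-5.23 ± 0.64, adjusted p = 0.00242) and 20.4-fold lower than in wt pro-B cells (-4.35 ± 0.64, adjusted p = 0.00253). With normexp Ccr9 was 12.5-fold lower than in dHet and 6.77-fold lower than in wt pro-B cells. The pro-B groups did not differ past the threshold in Ccr9 (0.88 ± 0.34, adjusted p = 0.0948).

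Ccr6, the receptor of Ccl20 on maturing B cells and other lymphocytes, had its highest level in wt pro-B cells. It was at -3.62, -1.60 and -4.08 in the leukemias, -5.46 and -6.05 and undetected in dHet, and 0.31 and 0.20 in wt pro-B cells. It was at least 19.8-fold lower in dHet than in wt pro-B cells (adjusted p = 3e-05), and 3.92-fold lower with normexp. In the leukemias it was at least 1.94-fold higher than in dHet (adjusted p = 0.0307, but between 0.062 and 0.152 without any 1 of the 4 pro-B arrays) and 10.2-fold lower than in wt pro-B cells (-3.35 ± 0.74, adjusted p = 0.0107, but 0.0576 and 0.0647 with a single wt array). Cxcr5, the follicle homing receptor, differed between the leukemias. It was at 0.40, -1.15 and 2.85 in the leukemias, 0.06 and 0.76 in dHet and 2.31 and 2.26 in wt pro-B cells. It was 3.67-fold lower in dHet than in wt pro-B cells (-1.88 ± 0.48, adjusted p = 0.023, but between 0.051 and 0.138 without any 1 of the 4 pro-B arrays). The leukemias overlapped both pro-B groups and passed against neither dHet (0.29 ± 1.11, adjusted p = 0.843) nor wt (-1.58 ± 1.11, adjusted p = 0.262).

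Cxcr3 and Cxcr6 were higher in leukemias than in dHet pro-B cells. Cxcr3, the receptor of Cxcl9, Cxcl10 and Cxcl11 on activated T and NK cells, was at 0.65, -0.33 and -0.71 in the leukemias, -2.71 and -2.48 in dHet and -0.23 and 0.00 in wt pro-B cells. It was 5.52-fold higher in leukemias than in dHet (2.47 ± 0.40, adjusted p = 0.00558), 5.59-fold lower in dHet than in wt pro-B cells (-2.48 ± 0.21, adjusted p = 0.000225), and differed by -0.02 ± 0.40 between leukemias and wt pro-B cells (adjusted p = 0.974). Cxcr6, the receptor of Cxcl16, was detected on all 6 leukemia arrays, on neither dHet array and on 1 wt array. It was at -1.64, -2.40 and -3.30 in the leukemias, -5.81 and -6.37 in dHet and -3.91 and -4.36 in wt pro-B cells. It was at least 3.05-fold higher in leukemias than in dHet (adjusted p = 0.00334) and 3.22-fold higher than in wt pro-B cells (1.69 ± 0.50, adjusted p = 0.0299, but between 0.0601 and 0.151 without either wt array or without mouse 713). Between dHet and wt pro-B cells its change was -1.95 ± 0.26 (adjusted p = 0.00181), but -0.01 with undetected arrays set at their dimmest detected level.

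Ccr2, the receptor that brings monocytes out of the bone marrow, was undetected in dHet pro-B cells. It was at -2.32, -1.77 and -3.30 in the leukemias and at least 3.02-fold higher than in dHet pro-B cells (adjusted p = 0.00761, and 0.0573 without dHet replicate 2). Against wt it did not pass (1.41 ± 0.50, adjusted p = 0.0534). Xcr1, the Xcl1 receptor of cross-presenting dendritic cells, was lower in leukemias than in dHet (-1.12 ± 0.36, adjusted p = 0.0496) and wt pro-B cells (-1.06 ± 0.36, adjusted p = 0.0484). It was detected on both dHet arrays, at -3.25 and -3.75, on both wt arrays and on 2 of 6 leukemia arrays, and did not pass between the pro-B groups (0.06 ± 0.38, adjusted p = 0.924). The changes with undetected arrays at their dimmest detected level were -0.25 and -0.19, and both calls were lost without replicate 2 of any leukemia, without mouse 713 or without any 1 of the 4 pro-B arrays (adjusted p between 0.058 and 0.241). Ccr3 passed in none of the 3 comparisons.

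**Figure D3:**
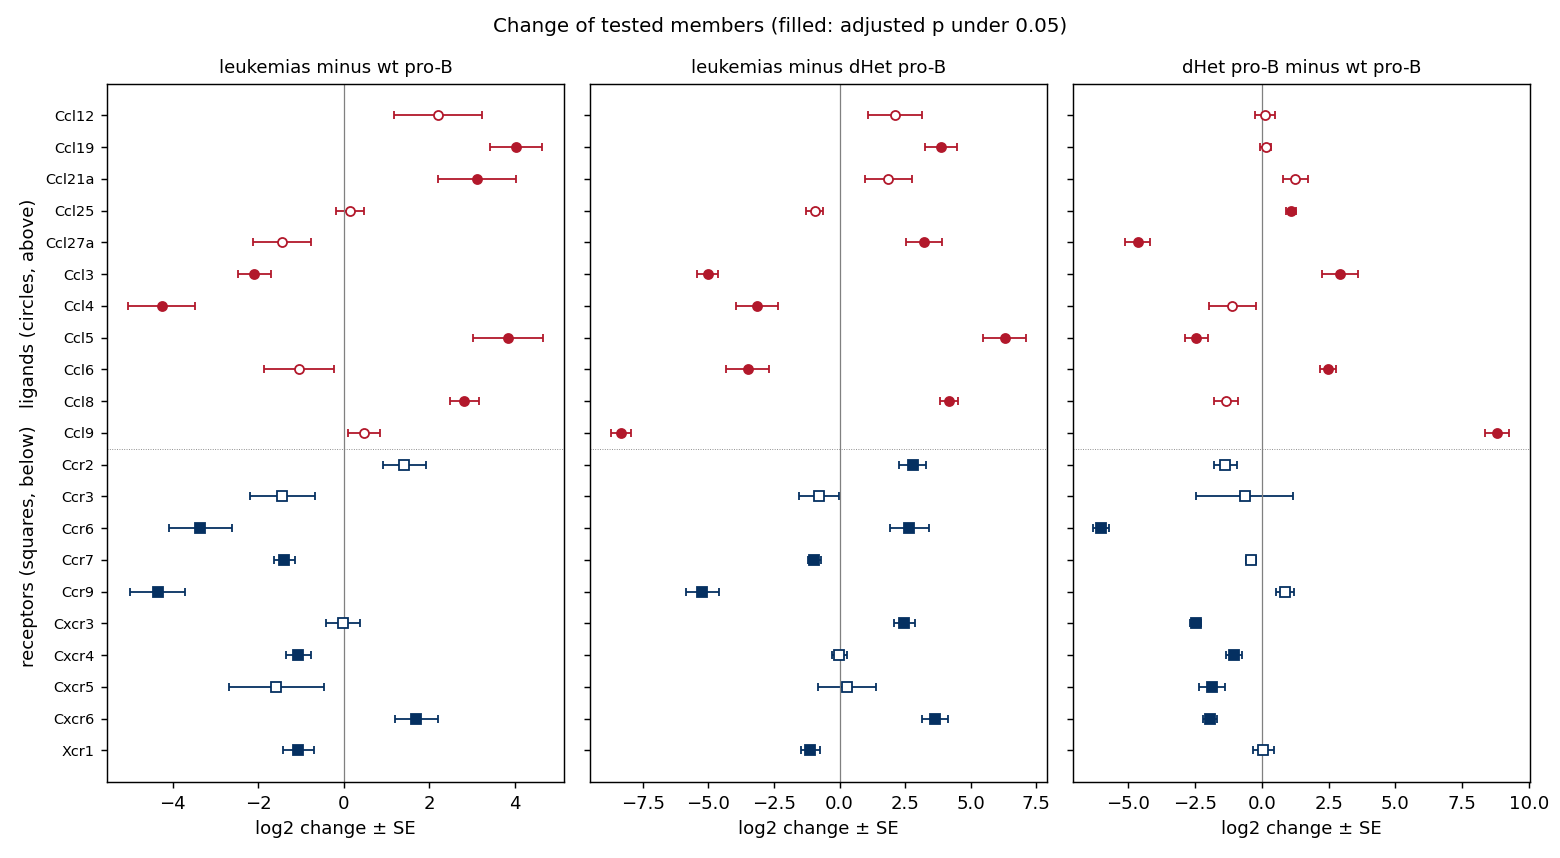
Log2 change ± SE of 21 of the 22 tested members in 3 comparisons (leukemias minus wt pro-B, leukemias minus dHet pro-B, dHet minus wt pro-B), each with its own horizontal axis. Ligands are circles and receptors squares, filled where the adjusted p was under 0.05. In dHet against wt pro-B cells the 4 filled points to the right of 0 are ligands and 5 of the 7 to the left are receptors.

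Against dHet pro-B cells, 9 members were higher in the leukemias (40.9% of the 22, against 21.7% of all genes tested) and 7 were lower (31.8%, against 24.4%). The 9 were 4 ligands and 5 receptors, and the 7 were 4 ligands and 3 receptors. The median change was 1.86 for ligands, 0.29 for receptors and -0.06 for all genes tested (1.08 and 0.49 for ligands and receptors with undetected arrays at their dimmest detected level). The calls for Ccl27a, Ccr6 and Xcr1 were lost with normexp background correction and in the authors' deposited log2 table, those for Ccr2 and Cxcr6 with normexp alone, those for Ccr6 and Xcr1 with undetected arrays at their dimmest level, and those for Ccl4, Ccr7 and Xcr1 with the slide as a random block. Against wt pro-B cells, 5 members were higher in the leukemias (22.7%, against 31.3% of all genes) and 7 were lower (31.8%, against 27.5%). Neither share was far above that of all genes. The 5 higher were 4 ligands and Cxcr6, and the 7 lower were 2 ligands and 5 receptors, with median changes of 0.47 for ligands, -1.06 for receptors and 0.06 for all genes (0.47 and -0.30 for ligands and receptors with undetected arrays at their dimmest level). The calls for Ccl3, Ccl21a and Xcr1 were lost with normexp and in the authors' table, that for Cxcr6 with normexp, those for Ccl21a and Xcr1 with undetected arrays at their dimmest level, and those for Ccl3 and Xcr1 with the slide as a random block. Without wt replicate 1 or 2 these counts were 2 and 3 higher and 4 and 4 lower.

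Between the pro-B groups, 4 members were higher in dHet than in wt (18.2%, against 16.7% of all genes) and 8 were lower (36.4%, against 14.8%). The 4 higher were all ligands, and the 8 lower were 2 ligands and 6 receptors. The median change was 0.14 for ligands, -1.37 for receptors and 0.13 for all genes (0.05 and -0.65 for ligands and receptors with undetected arrays at their dimmest level). With normexp, Ccl9 and Ccl27a alone stayed past the threshold, while calls over all genes fell from 4559 to 503. The calls for Cxcr4 and Cxcr6 were also lost in the authors' table, that for Cxcr6 with undetected arrays at their dimmest level, and those for Ccl3, Cxcr4 and Cxcr5 without the filter on detection. The comparisons share control arrays and are not independent of each other. Leaving out dHet replicate 1 or 2 gave 3 members lower in leukemias than in dHet pro-B cells in each case, and leaving out dHet replicate 2 gave 5 higher.

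The leukemias differed from each other in 13 of 22 members (59.1%, against 16.3% of all genes), by limma's F test on the 2 arrays of each mouse. The 13 were 7 ligands and 6 receptors. Among them Ccl12, Ccl19 and Ccl21a were tested only because both arrays of leukemia 713 detected them. A high level in leukemia 713 was thus a condition of their test, and the share called is not a fair contrast with that of all genes. With the slide, which the replicate number of a leukemia marks, as a fixed block, 18 differed, these 13 among them. Cxcr5 had the widest gap between mouse means among those called, 16.1-fold between leukemias 760 and 713 (adjusted p = 0.00392, and 0.109 without mouse 760). Ccl12, undetected in leukemia 760, was at least 3.3-fold higher in leukemia 713 (adjusted p = 0.00194, and 0.0836 without mouse 760). Ccl21a differed 7.5-fold (adjusted p = 0.00957, but 0.0652 without replicate 1 of leukemia 713 and 0.865 without that mouse) and Ccl6 7.41-fold (adjusted p = 0.00238, and 0.053 without mouse 713), each highest in leukemia 713. Ccr6 was also highest there, 5.59-fold above the lowest leukemia (adjusted p = 0.00335, and 0.542 without mouse 713). Leukemia 760 was lowest in Ccl5, Ccl6, Ccl12, Ccl19, Ccl21a, Ccr6, Ccr9, Cxcr3 and Cxcr6, and highest in Ccl27a and Cxcr5. Leaving out mouse 713 left 7 members called, leaving out mouse 760 left 6, and normexp left 2. Each mouse gave 1 leukemia, so these are differences between 3 tumors.

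Some ligands can be set beside their own receptors. Ccl19 was higher in leukemias than in either pro-B group, and its receptor Ccr7 lower. Ccr9 was lower in leukemias than in both pro-B groups. Its ligand Ccl25 passed against neither with its brightest probe, but was lower than in dHet pro-B cells with its weaker second probe (-1.18 ± 0.27, adjusted p = 0.0162). Cxcr4, Ccr6 and Cxcr6 were measured in samples where no array detected Cxcl12 or Ccl20 and the brightest Cxcl16 probe was not detected.

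Marker genes of other cell types also differed between the groups, and whether they moved with these members was not tested. In bulk RNA fewer cells of a type and less RNA per cell cannot be told apart. The summed log2 level of 13 monocyte and macrophage markers lay between 3.79 and 6.70 on the leukemia arrays, against 4.20 and 4.39 in dHet and 3.89 and 4.54 in wt pro-B cells, and was lowest in leukemia 760. Lyz2 alone made up 80.5% to 97.6% of that sum on every array. Of the 11 markers tested, 7 were higher in leukemias than in dHet pro-B cells (63.6%, against 21.7% of all genes) and 1 was lower (9.09%, against 24.4%). Against wt, 3 were higher (27.3%, against 31.3%) and 1 was lower (9.09%, against 27.5%). Between the pro-B groups 9 were lower in dHet than in wt (81.8%, against 14.8%) and 0 higher (0%, against 16.7%). On the leukemia arrays 1 of the 13 was undetected throughout (Cd14), against 9 in dHet, Csf1r, C1qc and Emr1 among them, and 3 in wt pro-B cells. The 11 T cell markers summed to between 3.54 and 5.06 in the leukemias, 3.23 and 3.53 in dHet and 2.02 and 2.11 in wt pro-B cells, with 3, 5 and 5 of them undetected. Lck made up 43.9% to 84.4% of that sum. Of the 8 tested, 4 were higher in leukemias than in dHet and 4 than in wt pro-B cells (50%, against 21.7% and 31.3% of all genes). Lower were 1 against dHet (12.5%, against 24.4%) and 0 against wt (0%, against 27.5%). Cd3d was among those higher in both comparisons. Cd3e passed in neither (-1.03 ± 0.58 against dHet, adjusted p = 0.191, and 0.41 ± 0.58 against wt, adjusted p = 0.566), and Cd3g was not tested. The 1 lower than in dHet was Trat1 (-2.58 ± 0.51, adjusted p = 0.0103). Cd3d was at 1.34 and 0.38 in leukemia 686, 1.27 and 0.34 in leukemia 713 and 0.09 and -0.94 in leukemia 760, against -3.84 and -4.64 in dHet and -4.17 and -3.74 in wt pro-B cells. It was detected on the 6 leukemia arrays, 1 dHet and 1 wt array, and Cd4 and Cd28 on none of the 10. The 10 NK and cytotoxic markers summed to between 2.99 and 5.42 in the leukemias, 4.30 and 4.14 in dHet and 1.46 and 1.65 in wt pro-B cells, with 1, 6 and 5 undetected, and Ncr1 was detected on no array. A single gene made up 92.4% and 91.5% of that sum in leukemia 760, and a different one 89.3% and 92.3% in dHet pro-B cells. Of the 7 tested, 1 was higher in leukemias than in dHet and 1 than in wt pro-B cells (14.3%, against 21.7% and 31.3% of all genes). Lower were 0 in both comparisons (against 24.4% and 27.5%). The part of these cells in the levels of Ccl5, Ccl8, Ccl12, Ccr2 and Cxcr3 was not tested.

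Neutrophil markers (8 genes) summed to between -1.49 and 4.85 in the leukemias, -0.53 and -1.49 in dHet and 6.02 and 7.05 in wt pro-B cells, with 1, 6 and 2 undetected. Dendritic markers (5 genes) summed to between -3.32 and -0.49, -2.98 and -2.92, and 0.82 and 0.65 in the same groups, with 3, 5 and 3 undetected. Of 13 stromal markers, which would show OP9 feeder cells, 12 were undetected in dHet pro-B cells, against 9 in the leukemias and 11 in wt pro-B cells. Col1a1, Pdgfra, Pdgfrb, Lum and Fap were detected on none of the 10 arrays, and the sums were -1.09 and -1.25 in dHet and -1.64 and -1.18 in wt pro-B cells. Col1a2 was detected on 9 of the 10 arrays. Its level was -3.31 and -2.81 in dHet and -3.34 and -3.55 in wt pro-B cells (0.39 ± 0.47, adjusted p = 0.583). Of the 4 tested, 1 was higher in dHet than in wt (25%, against 16.7% of all genes) and 0 lower (against 14.8%). The higher 1 was Fn1 (1.61 ± 0.49, adjusted p = 0.0421), undetected in both groups. Its change was 0.06 with undetected arrays at their dimmest level. In the leukemias the stromal sum was -0.24 and -1.54 (686), 0.86 and 0.82 (713) and -1.05 and -1.63 (760). Leukemia 713 held the highest Ccl19 and Ccl21a, and Fn1 and Dcn were detected on both its arrays. Fn1 alone made up 48.4% and 57.6% of its sum. Ccl19 was at -1.47 in leukemia 686. The part of stromal, neutrophil and dendritic cells in these results was not tested.

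**Figure D4:**
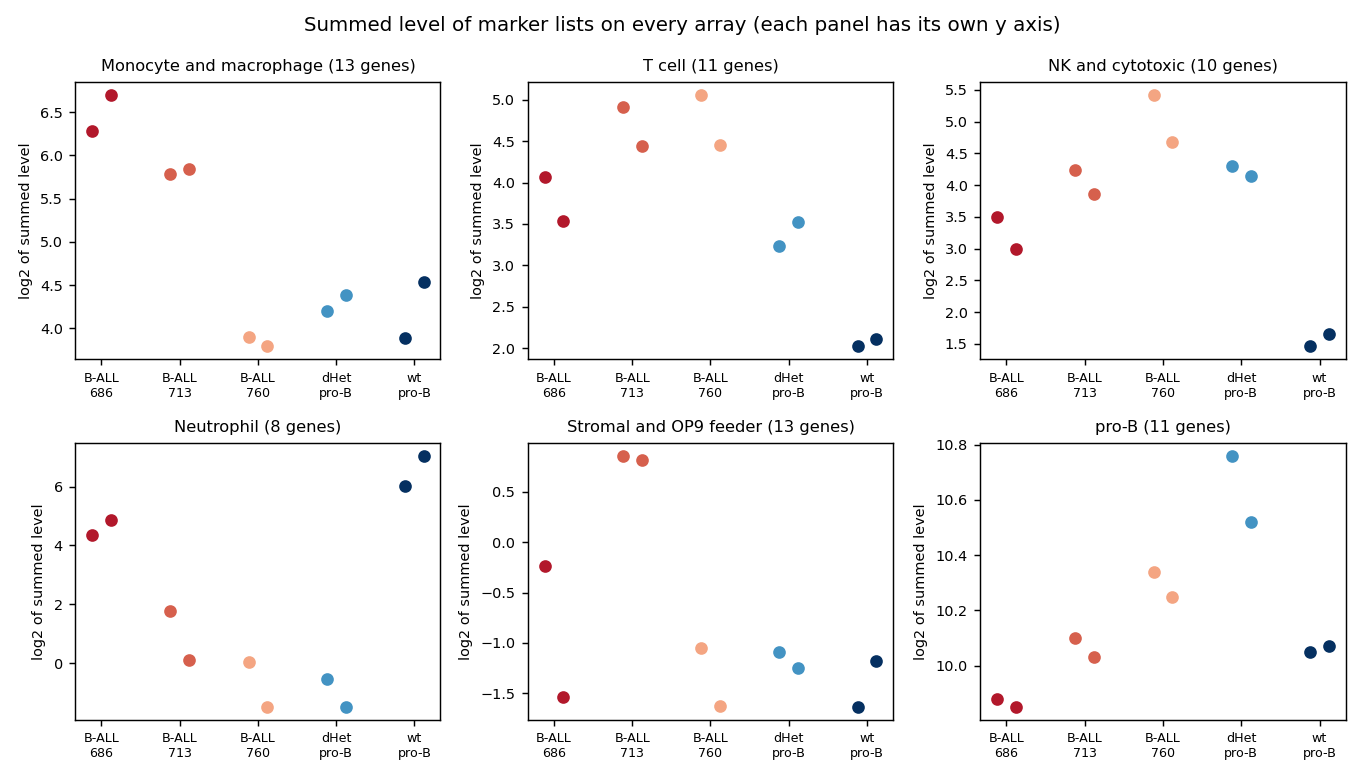
Summed level of 6 marker lists on each array (log2, 0 = the array's 75th percentile, each panel with its own axis), for leukemias 686, 713 and 760, dHet pro-B and wt pro-B cells. The T cell sum is 3.54 or higher on every leukemia array and 2.11 or lower in wt pro-B cells, and the neutrophil sum is highest in wt pro-B cells at 6.02 and 7.05.

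Family genes under other names and genes that act downstream of the receptors were counted from a list. Of 8 other family names on the array 5 were tested. In the leukemias 1 was higher than in dHet pro-B cells (20%, against 21.7% of all genes), and 1 was higher (20%, against 31.3%) and 2 lower (40%, against 27.5%) than in wt. Between the pro-B groups 1 was lower in dHet (20%, against 14.8%). Ackr4, a decoy receptor that takes up Ccl19, Ccl21 and Ccl25, was detected on 3 of 6 leukemia arrays and no pro-B array, at least 1.17-fold higher than in dHet (adjusted p = 0.00981) and at least 1.21-fold higher than in wt pro-B cells (adjusted p = 0.00653). Ackr3, which takes up Cxcl12, was detected on the 2 wt arrays alone and was at least 2-fold lower in the leukemias (adjusted p = 0.000557). Ccrl2, a receptor that binds chemerin, was lower in the leukemias (-2.58 ± 0.42, adjusted p = 0.00369) and in dHet pro-B cells (-3.75 ± 0.19, adjusted p = 3.2e-05) than in wt pro-B cells.

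All 40 listed signalling genes were tested. In the leukemias 12 were higher (30%, against 21.7% of all genes) and 5 lower (12.5%, against 24.4%) than in dHet pro-B cells, and 14 were higher (35%, against 31.3%) and 8 lower (20%, against 27.5%) than in wt. Between the pro-B groups 5 were higher (12.5%, against 16.7%) and 8 lower (20%, against 14.8%) in dHet. The medians were 0.10, 0.38 and 0.08. The Rgs proteins switch off the G proteins under chemokine receptors. They are 9 of the 40 listed genes. Of the 9, 6 were lower in leukemias than in wt pro-B cells, against 27.5% of all genes (Rgs1, Rgs2, Rgs3, Rgs10, Rgs13 and Rgs16). Rgs3 was at -0.05, 0.21 and 0.44 on replicate 1 of leukemias 686, 713 and 760. On replicate 2 it was at 1.96, 2.54 and 1.96, close to 1.95 and 2.71 in wt pro-B cells. Rgs13 was detected on 2 of the 10 arrays, so it entered the test through a single group in which it was high. Rgs18 (1.60 ± 0.53, adjusted p = 0.0424) and Rgs19 (0.77 ± 0.16, adjusted p = 0.00917) were higher, against 31.3% of all genes, and Rgs14 did not pass. Against dHet pro-B cells 4 of the 9 were higher in the leukemias and 2 lower, against 21.7% and 24.4% of all genes. Between the pro-B groups 6 of the 9 were lower in dHet and 0 higher, against 14.8% and 16.7% of all genes. Rgs16 was lower than in wt both in the leukemias (-5.30 ± 0.84, adjusted p = 0.00334) and in dHet pro-B cells (at least 29.6-fold, adjusted p = 9e-05), with 2 of 6 leukemia arrays detected. With undetected arrays at their dimmest level, the change in the leukemias was -4.26. Rgs1, undetected in dHet pro-B cells, was at least 12.8-fold lower there than in wt (adjusted p = 0.000117), at least 2.59-fold higher in leukemias than in dHet (adjusted p = 0.00225) and lower in leukemias than in wt (-2.30 ± 0.37, adjusted p = 0.00339). Rgs2 was lower in leukemias than in wt too (-3.21 ± 0.31, adjusted p = 0.00069). On the higher side against wt stood Rassf5, which carries receptor signals to integrins (1.42 ± 0.15, adjusted p = 0.000847), Pik3r5, a regulatory subunit of the kinase that chemokine receptors turn on (1.36 ± 0.18, adjusted p = 0.00192), and Coro1a, an actin regulator of leukocyte movement (1.17 ± 0.17, adjusted p = 0.00235). Gnai2, the G protein subunit that most chemokine receptors couple to, did not pass in any comparison.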

How the data were processed

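Expression was measured on one-colour Agilent arrays with Cy3. The deposited scanner files hold intensity values made by the authors with Feature Extraction 10.5.1.1, per the file headers (9.1, per the submitters' processing notes), which subtracted background and detrended within each array. The authors' deposited value table holds log2 values that look quantile normalized, of unstated background handling, and served as an alternative. Probe coordinates follow mm9, as the file headers state.

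Control spots and outliers were left out, spots of a probe averaged, and log2 processed signal taken minus each array's 75th percentile. Of 27218 gene names, 14438 were tested with limma 3.58.1 (R 4.3.3, data.table, version 1.17.8) and Benjamini-Hochberg adjustment, with spread pooled over groups. The leukemias were compared over 7 values (3 mouse means and 4 pro-B arrays, with 4 residual degrees of freedom), and the pro-B groups and the leukemias among each other over 10 arrays in 5 groups (5 residual degrees of freedom). The number of arrays limits the precision. The fits were tested on simulated data with noise independent between arrays. These held no slide effect and no spread between mice, so the simulation cannot check the fits for either. Named are all members that passed, and those detected on all arrays or given for comparison. The members, lists and tests were chosen with earlier results of these data known. Replicate numbers pair the leukemia arrays alone, which share a slide by number: deviations of replicate 1 correlated at 0.443 to 0.633 between leukemias and at -0.031 to 0.0805 in all other pairs of groups. Proteins were not used here. Of the genes counted, 1 member and 1 marker are not reported by name here. Alternatives covered scaling, background, filters, probe choice, slides and scan days as blocks, and leaving out arrays or mice.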

Additional observations from a re-analysis of the deposited data

How the results depend on the processing

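No called change reversed under any alternative that could be run. Higher than wt in the leukemias were 5 members, but 8 with scaling on the array median, 3 with normexp background, 1 with genes detected on all 10 arrays (which tests fewer genes), and 2 to 7 with 1 array or mouse left out. Lower were 7, but 4 with the array median, 2 with genes detected on all arrays, 11 with arrays as replicates, and 4 to 9 with 1 left out. Higher than dHet were 9, but 4 with normexp, 2 with genes detected on all arrays, and 5 to 10 with 1 left out. Lower were 7, but 2 with genes detected on all arrays and 3 to 8 with 1 left out. In dHet against wt pro-B cells 4 were higher, but 1 with normexp, 1 with genes detected on all arrays, and 3 to 5 with 1 left out. There 8 were lower, but 1 with normexp, 4 with genes detected on all arrays, and 6 to 9 with 1 left out. Between leukemias 13 differed, but 2 with normexp, 4 with genes detected on all arrays, and 6 to 15 with 1 left out. Apart from those cases, the cause was not tested. Calls over all genes, in either direction, moved as well. With normexp they went from 4559 to 503 in dHet against wt pro-B cells. For the leukemias they went from 8485 to 4880 against wt and from 6666 to 3127 against dHet. They also fell with a single wt or dHet array, and rose between the pro-B groups with the second scan day alone. The member counts are thus not particular to these genes.

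Between leukemias, where the replicate number marks the slide, 14 members differed with the replicate number as a block, 17 with the slide as a random block and 18 with it as a fixed block, the 13 among them each time. Across the other groups the numbers do not pair, and with the replicate number as a block 11 members were lower than wt in the leukemias, as with the scan day as a block (11). Scaling on the array median moved the median change of all genes against wt to 0.63 (0.06 in the setting used here) and the higher share of calls to 73.7% (53.3%). Scaling on probes detected on all arrays gave -0.30 and 35.1%. For leukemias against dHet pro-B cells the higher share was 47.1%, 62.5% and 38.1% under these 3 settings, and for dHet against wt pro-B cells 53%, 64.8% and 39.9%. Calls that held under every alternative run were Ccl4, Ccl8, Ccl19 and Ccr9 for leukemias against wt, Ccl3, Ccl5, Ccl8, Ccl9, Ccl19, Ccr9 and Cxcr3 against dHet, and Ccl9 and Ccl27a for dHet against wt pro-B cells. With the second scan day alone, an alternative added after seeing the data, the counts were 5 higher and 7 lower, 9 and 8, and 6 and 12 in those comparisons. Dim members are limited by background: for Ccl19 the change against wt was 0.82 with normexp and 0.91 in the authors' deposited log2 table, against 4.02.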

Other observations

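Replicate 1 of the leukemias, all on 1 slide, differed from replicate 2 in genes that differ between the sexes. Xist was detected on replicate 1 of leukemias 686 and 713 (-1.26 and -2.51) and not on replicate 2 (-6.83 and -6.78). Ddx3y was detected on replicate 1 of leukemia 760 (-3.13) and not on replicate 2 (-6.34). Whether RNA of another sample was on the replicate 1 arrays was not tested. On the second scan day alone, which leaves out these replicate 1 arrays, the counts of members called are those given with the processing alternatives.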
